A study of Rattus norvegicus with 4 samples.

Results

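Slc10a1, Slco1a4, Abcc2 and Abcc4 encode carriers that move bile acids and other organic anions across the hepatocyte membrane, and this section describes their transcripts in rat liver after a bile duct toxicant. A gene was taken when a spot of the array had its symbol as the single gene in the platform's annotation. All 4 genes were found, on 6 spots, out of 958 genes named in that way on 1432 spots. Slc10a1 and Slco1a4 had 2 spots each, and Abcc2 and Abcc4 had 1 each.

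Male Sprague-Dawley rats (250 to 300 g) were injected intraperitoneally with alpha-naphthylisothiocyanate (ANIT) at 75 mg/kg, as a 7.5 mg/mL solution in olive oil, or with olive oil alone, and livers were taken 12 h later. RNA of the right lateral lobe was pooled over 3 rats for each treatment, so no value belongs to a single animal. Both pools were hybridised together, in 2 dyes, to each of 4 cDNA arrays. ANIT RNA was labelled with Cy5 on arrays 1 and 3 and with Cy3 on arrays 2 and 4. The labels name no separate RNA pools for the arrays, so p-values here measure the spread between hybridisations, which may be technical, and the number of arrays, 4, limits the precision.

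Bile acids made in the liver return to it in portal blood and are taken up at the sinusoidal face of the hepatocyte. Slc10a1 (NTCP) carries conjugated bile acids in together with sodium, and Slco1a4 (OATP2) takes up bile acids and many drugs without sodium. At the canalicular face, Abcc2 (MRP2) pumps conjugated bilirubin and other glutathione and glucuronide conjugates into bile. Abcc4 (MRP4) sits at the basolateral face and can export bile acids back toward blood. As textbook background, prolonged cholestasis lowers uptake carriers and raises basolateral export in rodent liver, and ANIT is a standard agent for producing cholestasis.

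The RefSeq bases just upstream of the start site are shown for 3 of the genes (the Abcc4 window starts inside that gene's annotated span and is not printed), to show how differently the carriers' promoters are built (assembly GRCr8, each read 5′ to 3′ along its gene's strand). The 150 bases before the start are on chr6:106357945-106358094, minus strand, for Slc10a1, on chr4:176495847-176495996, minus strand, for Slco1a4, and on chr1:252613725-252613874, plus strand, for Abcc2. Capitals mark GTTAAT, the core of sites bound by the hepatocyte factor HNF1, GGGCGG, the GC box, and CCAAT, each on either strand; the 3 motifs do not overlap here.
Slc10a1: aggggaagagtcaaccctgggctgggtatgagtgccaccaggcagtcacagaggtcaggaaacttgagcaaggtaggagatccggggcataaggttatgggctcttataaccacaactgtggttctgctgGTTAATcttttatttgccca
Slco1a4: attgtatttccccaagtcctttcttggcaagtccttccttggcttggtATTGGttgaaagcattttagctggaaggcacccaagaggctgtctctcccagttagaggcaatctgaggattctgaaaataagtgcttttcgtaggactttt
Abcc2: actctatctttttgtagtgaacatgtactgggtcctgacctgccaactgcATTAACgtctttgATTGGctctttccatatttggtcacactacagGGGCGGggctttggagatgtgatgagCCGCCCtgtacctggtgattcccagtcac

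Within 250 bases before the start, the HNF1 core occurred 1 time in Slc10a1 and 1 time in Abcc2, and in 6.45% of 33469 rat promoters of that length. The GC box occurred 2 times in Abcc2 and 0 times in Slc10a1 and Slco1a4, and in 30.5% of all promoters. CCAAT occurred 1 time in Slco1a4 and 1 time in Abcc2, against 34.0% of all promoters holding it, and the TATA box TATAAA occurred in 0 of these 3 genes, against 12.9%. The GC content of the 250 bases was 42.4% for Slco1a4, 45.2% for Abcc2 and 50.4% for Slc10a1. These matches describe the letters only, and the array data do not bear on any factor's binding. The clone sequences spotted for the 4 genes were not used here.

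Each value is the deposited log ratio of a spot minus the median of the 1648 gene spots of that array, in log units. The sources used here give neither the logarithm's base nor which RNA is the numerator. Positive and negative therefore name sides and not a rise or fall after ANIT. The mean ratio of a gene is the mean over the 2 dye orientations, and the dye contrast is its value with ANIT in Cy5 minus its value with ANIT in Cy3. If each array holds the same treatment over the other, the mean ratio is the treatment difference. If each array holds the same dye over the other, the treatment difference is the dye contrast divided by 2. The sources used here do not state which of these readings holds. Both are therefore given for each of the 4 carriers, and for most other genes only the mean ratio is given. A log ratio holds no level, so the liver identity of the RNA could not be checked from its markers, and levels of the 4 genes cannot be ranked. In whole liver, fewer cells of a type and less RNA per cell cannot be told apart.

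Under the first reading, none of the 4 carriers differed between ANIT and olive oil beyond the spread of the arrays. The mean ratio was 0.060 ± 0.041 (SE, n = 4 arrays) for Slc10a1, 0.015 ± 0.047 for Slco1a4, -0.059 ± 0.041 for Abcc2 and -0.041 ± 0.055 for Abcc4. In limma with a dye-orientation term for each gene, 0 of the 4 passed an adjusted p of 0.05, against 3.92% of all 1174 features tested (46 features). At an unadjusted p under 0.05 the count was also 0 of 4, against 16.9% of all features. With no dye term in the fit, 0 of the 4 and 0 of all features passed, and 0.426% of features had an unadjusted p under 0.05. The 2 uptake carriers had estimates above the median gene spot and the 2 export pumps below it, but each of the 4 intervals (95%) held 0.

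Slc10a1, the sodium-dependent uptake carrier, was read by 2 spots with like patterns. Its spot in print block 4 stood at 0.45 on array 1, -0.39 on array 2, 0.48 on array 3 and -0.33 on array 4. The spot in block 11 stood at 0.58, -0.45, 0.47 and -0.35 on the same arrays. Both arrays with ANIT in Cy5 were high and both with ANIT in Cy3 were low, with no overlap. Over all features, 39.3% were positive on both arrays with ANIT in Cy5 and negative on both with ANIT in Cy3. The mean ratios of the 2 spots, 0.053 and 0.066, differed by 0.012. Both spots carry 1 clone accession. Over 21 pairs of spots of the same clone on this array, the median difference in mean ratio was 0.033, so the Slc10a1 pair was closer than most. The gene's mean ratio had a 95% interval from -0.033 to 0.15 and an adjusted p of 0.502 in limma.

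Slco1a4 was read by 2 different clones, and they did not show the same pattern. The spot in block 4 stood at 0.35, -0.47, 0.38 and -0.48 on arrays 1 to 4, with the dye orientations far apart. The spot in block 10 stood at 0.38, -0.10, -0.036 and 0.11, and there the orientations overlapped. On the second spot, the repeat arrays 1 and 3 differed by 0.41, more than for 98.4% of gene spots, whose median gap was 0.093. On the first spot the same arrays differed by 0.034. The mean ratios were -0.056 for the block 4 spot and 0.086 for the block 10 spot, on opposite sides of the median gene spot. Their difference of 0.14 was larger than for 82.7% of 678 pairs of different clones of 1 gene, whose median difference was 0.063. Tested on its own, neither spot passed (limma adjusted p = 0.561 and 0.530). The gene's average of 0.015 (95% interval -0.092 to 0.12, adjusted p = 0.906) thus combines 2 spots that differed in repeatability, and it was -0.032 without array 1.

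Abcc2, the canalicular pump, had 1 spot, at 0.47 on array 1, -0.67 on array 2, 0.53 on array 3 and -0.57 on array 4. Repeat arrays of each orientation lay within 0.094 of each other, and the orientations stood far apart. Its mean ratio had a 95% interval from -0.15 to 0.035, with a limma adjusted p of 0.516. Abcc4, the basolateral pump, had 1 spot, at 0.20, -0.48, 0.28 and -0.16 on arrays 1 to 4. Arrays 2 and 4 differed by 0.32 for it, more than for 95.6% of gene spots (median 0.0995). Which of these arrays is kept decides the side of Abcc4. Without array 2 its mean ratio was 0.038 and without array 4 it was -0.12, and neither passed (95% interval with all arrays -0.17 to 0.085, adjusted p = 0.748). With gene-spot medians subtracted block by block, the Abcc4 mean ratio was -0.12 (adjusted p = 0.258) and its dye contrast was 0.33 in place of 0.56 (adjusted p = 0.0131).

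**Figure D1:**
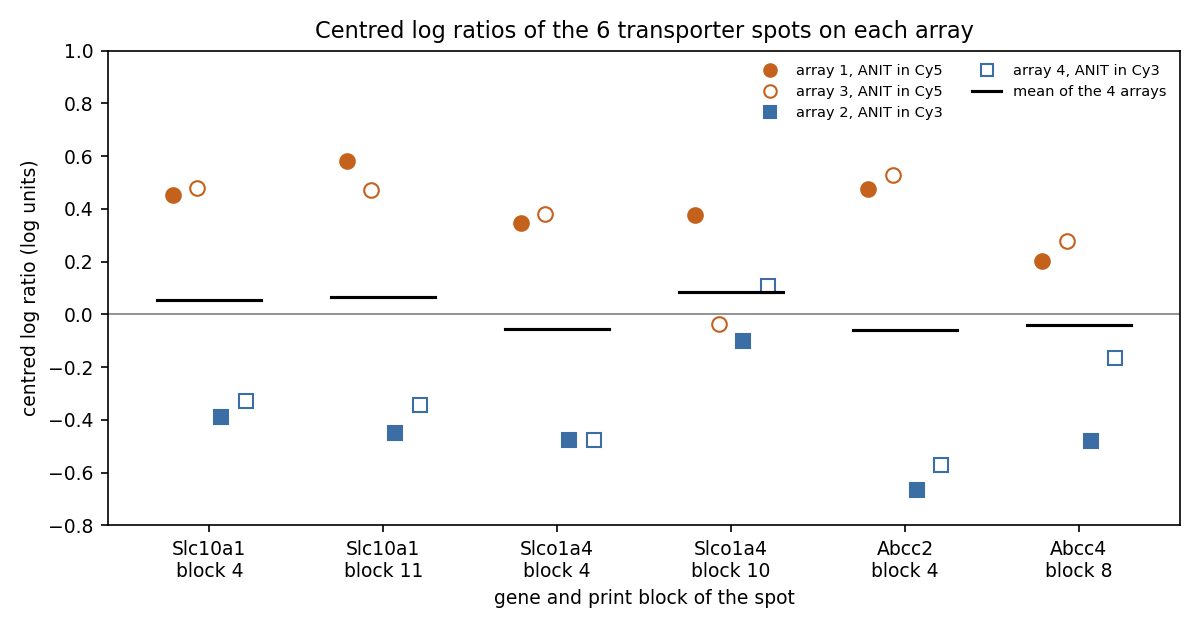
Centred log ratio (y axis, log units) of each of the 6 spots (x axis: gene and print block) on the 4 arrays, with circles for ANIT in Cy5, squares for ANIT in Cy3 and a bar for the mean. The orientations separate for 5 spots, positive with ANIT in Cy5 and negative with ANIT in Cy3, as were 39.3% of all features. They overlap for the Slco1a4 spot in block 10, and the means lie between -0.059 and 0.086.

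**Figure D2:**
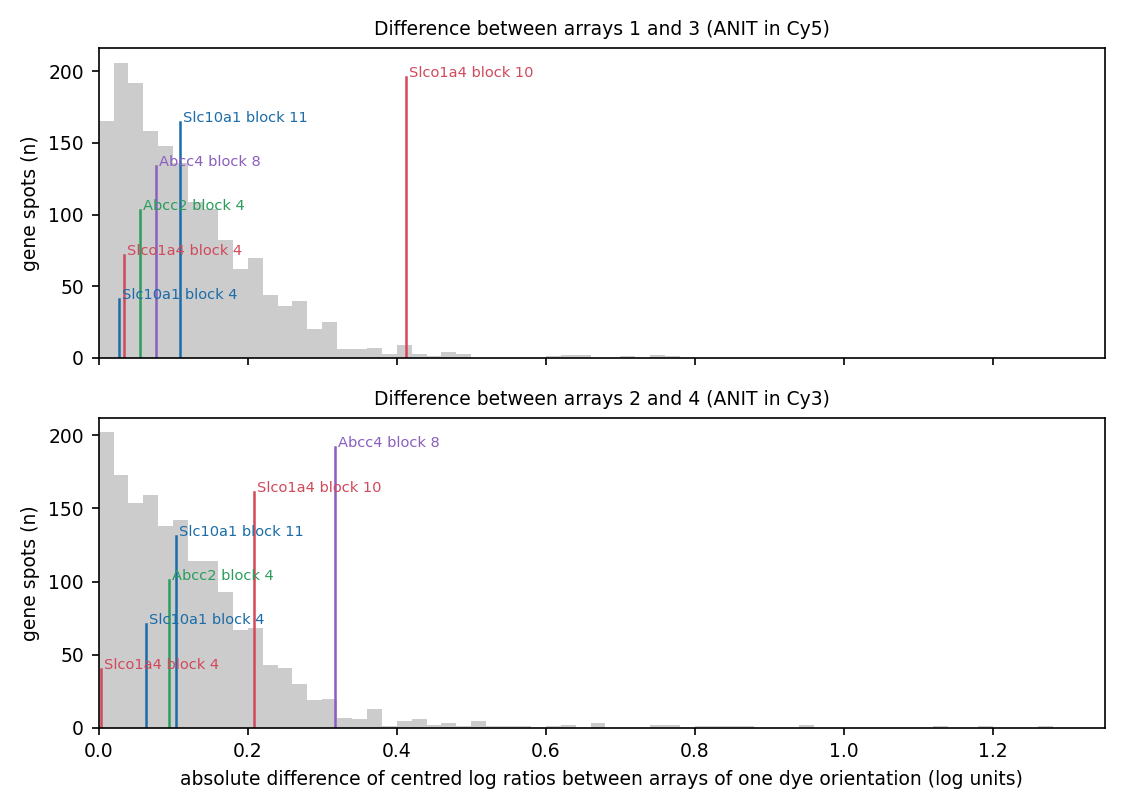
Histogram of the absolute difference between repeat arrays of 1 dye orientation (x axis, log units) over 1648 gene spots (y axis: number of spots), with a coloured line for each transporter spot. The Slco1a4 spot in block 10 (0.41, arrays 1 and 3) and the Abcc4 spot (0.32, arrays 2 and 4) lie in the tail, and the Slc10a1 and Abcc2 spots lie in the bulk.

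The intervals bound how large a difference these hybridisations leave room for, relative to the median gene spot and under the first reading. They rest on the spread between arrays and do not cover the difference between the Slco1a4 clones or the choice of centring. With a logarithm of base 2, the farther end of the 95% interval would be a ratio of 1.11 for Slc10a1, 1.09 for Slco1a4, 1.11 for Abcc2 and 1.12 for Abcc4, on one side or the other. With base 10 the same ends would be 1.42, 1.32, 1.42 and 1.47. The SE of Slc10a1, Abcc2 and Slco1a4, from 0.041 to 0.047, lay near the median SE of 0.043 over all features. That of Abcc4, 0.055, lay nearer to the 95th percentile of 0.060. Among the 1174 features the mean ratio had an SD of 0.099, and 59.5% of features had a mean ratio smaller in size than that of Slc10a1, the largest of the 4. A miss of the threshold does not show that the pools held equal amounts.

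The position of 0 changes the side and the call. As deposited, the mean of the 4 gene-spot medians was -0.22, and all 4 carriers were negative and past the threshold in limma, among the 90.4% of features that passed there, 90% on the negative side. Slc10a1 stood at -0.16 ± 0.035 (adjusted p = 0.0056), Slco1a4 at -0.20 ± 0.041 (adjusted p = 0.0038), Abcc2 at -0.27 ± 0.038 (adjusted p = 0.0015) and Abcc4 at -0.26 ± 0.056 (adjusted p = 0.0048). Slc10a1 and Slco1a4 thus turned from the positive to the negative side. Centring shifts the mean ratio of every feature by the same amount, so it cannot move a gene's place among the features. On either scale, 79.0% of features lay below Slc10a1 and 20.3% below Abcc2.

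The difference between 2 carriers on the same array does not depend on where 0 is set. The averages over the 4 arrays given next belong to the first reading. Slc10a1 exceeded Abcc2 by 0.12 ± 0.024 (SE with each orientation's mean removed, n = 4 arrays), with differences of 0.044, 0.25, -0.053 and 0.24 on arrays 1 to 4. Slc10a1 exceeded Abcc4 by 0.10 ± 0.066 (0.32, 0.061, 0.20 and -0.17). In both, 3 of 4 arrays were positive. The other differences were 0.044 for Slc10a1 minus Slco1a4, 0.074 for Slco1a4 minus Abcc2, 0.056 for Slco1a4 minus Abcc4 and -0.018 for Abcc2 minus Abcc4, each positive on 2 of 4 arrays. Of the 6 pairs, 0 passed an exact sign-flip permutation test over the arrays (two-sided, unadjusted p from 0.375 to 1, adjusted p from 0.900 to 1). With 4 arrays that test cannot reach 0.05, since its smallest p is 2 of 16 sign patterns, and it takes no account of the dye orientation. With the orientation means removed, the 95% interval on 2 residual degrees of freedom, not adjusted over the 6 pairs and added after the data were seen, was 0.013 to 0.22 for Slc10a1 minus Abcc2, and the intervals of the other 5 pairs held 0.

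Under the second reading, all 4 carriers lay on the same side. Averaged over spots, all 4 were positive on both arrays with ANIT in Cy5 and negative on both with ANIT in Cy3, as were 39.3% of features. The dye contrast was 0.88 ± 0.081 (SE, n = 4 arrays) for Slc10a1, 0.51 ± 0.094 for Slco1a4, 1.12 ± 0.082 for Abcc2 and 0.56 ± 0.11 for Abcc4. Divided by 2, these gave 0.44 (95% interval 0.35 to 0.53), 0.25 (0.15 to 0.36), 0.56 (0.47 to 0.65) and 0.28 (0.16 to 0.41). All 4 passed in limma (adjusted p = 6.87e-06, 0.000729, 2.01e-06 and 0.0011). Of all features, 86.5% passed there, 40.6% on the positive side, so passing does not set the carriers apart. Abcc2 had the widest contrast of the 4, above 91.5% of features, followed by Slc10a1, above 80.0%. The intervals of Slco1a4 and Abcc4 overlapped over most of their length. Between carriers, the dye contrast differed by -0.25 for Slc10a1 minus Abcc2 and by -0.62 for Slco1a4 minus Abcc2. It differed by -0.058 for Slco1a4 minus Abcc4 and by 0.56 for Abcc2 minus Abcc4. Each of these is opposite in sign to the pair's difference in mean ratio. The differences for Slc10a1 minus Slco1a4 (0.37) and Slc10a1 minus Abcc4 (0.31) had the same sign.

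The dye contrast depends on the clone and on the centring. The 2 Slco1a4 spots gave 0.84 and 0.17, and the second did not pass on its own (limma adjusted p = 0.235). The 2 Slc10a1 spots gave 0.83 and 0.93. As deposited, gene-spot medians differed between the orientations by -1.05, and the contrast was -0.17 for Slc10a1 (adjusted p = 0.0556), -0.54 for Slco1a4 (adjusted p = 0.000572), 0.071 for Abcc2 (adjusted p = 0.415) and -0.49 for Abcc4 (adjusted p = 0.0054). Under this reading too, the side of Slc10a1, Slco1a4 and Abcc4 is therefore a side relative to the median gene spot.

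**Figure D3:**
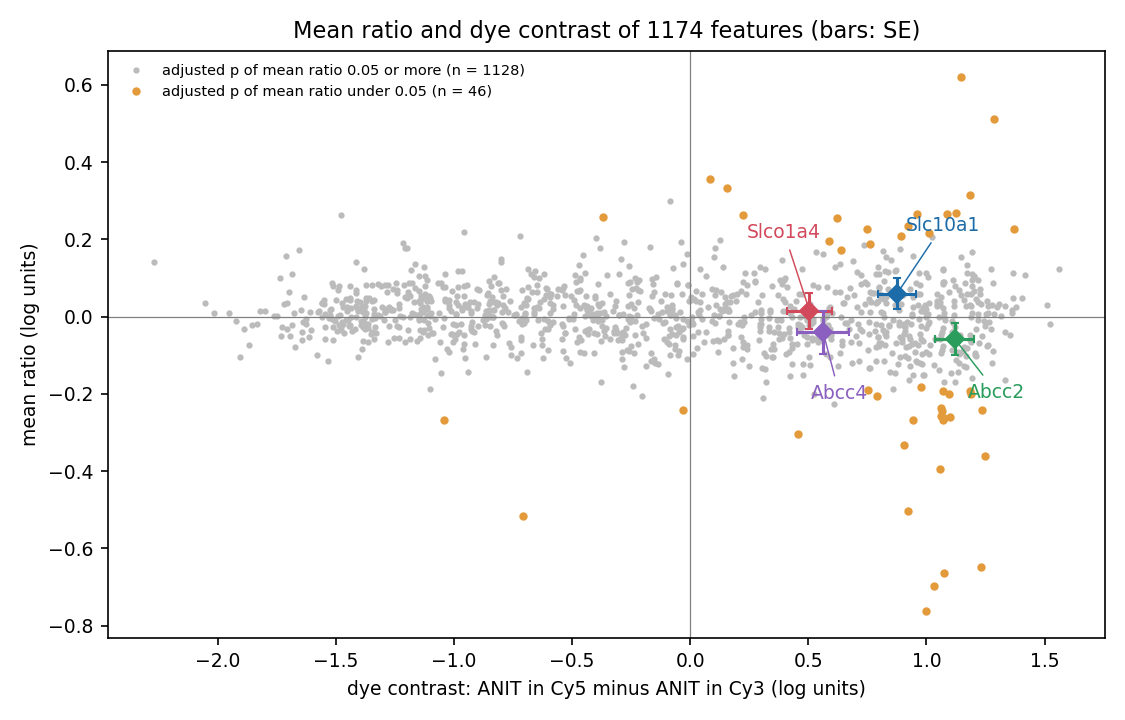
Dye contrast (x axis, log units) against mean ratio (y axis, log units) of 1174 features, with diamonds and SE bars for the 4 carriers and orange points for the 46 features past an adjusted p of 0.05 in the mean ratio. The carriers sit between dye contrasts of 0.51 and 1.12 with mean ratios between -0.059 and 0.060, inside the cloud of features that did not pass.

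The carriers lie in the range of dye contrast where calls in the mean ratio were more frequent. Of the 277 features between the contrasts of Slco1a4 and Abcc2, 28 passed in the mean ratio (10.1%), against 4 of 623 features with a contrast under 0 (0.642%). The SD of the mean ratio was 0.13 in the first set and 0.071 in the second. The 18 positions of each print block taken as control spots spanned contrasts from -1.86 to 1.36, 12 of them negative. The part of the dye in these counts was not tested.

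Among other carriers of bile acids and organic ions, none passed in the mean ratio either. The uptake list had 6 of 13 genes on the array. Besides Slc10a1 and Slco1a4, Slco2b1, a sodium-independent organic anion carrier, stood at -0.069 ± 0.041, Slc22a6, an organic anion transporter known from kidney, at 0.053 ± 0.040, Slc22a8, of the same group, at -0.026 ± 0.042, and Slc22a5, the carnitine carrier, at -0.017 ± 0.041. The median of the 6 was -0.00072, beside 0.0042 over all features. Of 11 canalicular genes listed, Abcc2 alone was measured, and of 8 basolateral exporters, Abcc1 joined Abcc4, at 0.019 ± 0.041. Values for the bile salt export pump Abcb11 and for Abcc3 were not analysed here. Slc22a5, Slc22a6 and Abcc1 had dye contrasts of -0.71, -1.18 and -1.14, opposite in side to the 4 carriers. Slco2b1 (0.72) and Slc22a8 (1.25) lay on the same side as the 4 carriers, Slc22a8 with a wider contrast than any of them.

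In the wider family of 59 measured ABC, SLC and SLCO genes, 0 passed in limma (all features: 3.92%), with 2 at an unadjusted p under 0.05 (all features: 16.9%), and the median mean ratio was 0.0084. The farthest were Slc35a1, a sugar nucleotide carrier of the Golgi, at -0.17 ± 0.052, Slc28a2, a nucleoside carrier, at -0.15 ± 0.039, and the chloride carrier Slc12a2 at -0.094 ± 0.049. Abcd3 of the peroxisome membrane (0.088), the glucose carrier Slc2a2 (-0.087), the serotonin carrier Slc6a4 (0.084), Slc25a14 (0.081), the sulfate carrier Slc26a1 (-0.081), the glutamate carrier Slc1a1 (0.080) and the glucose carrier Slc2a1 (0.080) followed. By the size of the mean ratio Slc10a1 ranked 16th, Abcc2 18th, Abcc4 26th and Slco1a4 48th of the 59. In dye contrast 22 of the 59 passed on the positive side, the side of the 4 carriers, and 35 on the negative side. Over all 1174 features, 477 (40.6%) and 538 (45.8%) did. The family's median dye contrast was -0.37, beside -0.083 over all features.

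Of 26 distinct genes measured across the bile acid lists, Nr0b2 alone passed in the mean ratio, at 0.24 ± 0.041 (limma adjusted p = 0.0132), and 6 had an unadjusted p under 0.05. Over all features the shares were 3.92% and 16.9%, so neither count sets the lists apart. In dye contrast 22 of the 26 passed, against 86.5% of all features. The contrast was positive for 18 of the 26, against 46.9% of all features, and the 26 include the carriers themselves, each positive. Nr0b2 is SHP, a repressor that bile acids induce through the receptor FXR. As deposited it stood at 0.020 and did not pass, and it also missed the threshold without array 3 (adjusted p = 0.0735) and on 1 of its 2 spots (0.17, adjusted p = 0.0523). Nr1h4, which encodes FXR, stood at -0.045 ± 0.048. Rxra, the partner of FXR and of the retinoic acid receptor, stood at -0.015 ± 0.041, and Rara, that receptor, at -0.018 ± 0.043. Of 10 measured regulators, 3 were positive and 7 negative, with a median of -0.032. Among these, Stat3, which carries interleukin-6 signals, stood at -0.17 ± 0.039 (adjusted p = 0.0544) and Tnf, an inflammatory cytokine, at -0.13 ± 0.040.

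The remaining regulators were Nr3c1, the glucocorticoid receptor, at -0.0995, the dioxin receptor Ahr at -0.067, Stat5b of growth hormone signalling at 0.065 and the cytokine Il1b at 0.015. In bile acid synthesis, the rate-limiting enzyme Cyp7a1 stood at -0.065 ± 0.039, Cyp8b1, which makes cholic acid, at -0.11 ± 0.043 and Cyp27a1 of the alternative route at 0.079 ± 0.040, none past the threshold as gene averages. Tested alone, 1 of the 2 Cyp8b1 spots passed (-0.20, limma adjusted p = 0.0224). In the list of canalicular anchoring and cytoskeleton, the membrane linker Ezr stood at -0.038, the protein kinases Prkcd at -0.082 and Prkce at -0.11, and Actb at 0.061. Of the sodium pump, which supplies the gradient that Slc10a1 uses, 0 of 2 genes were measured. Hprt1, a housekeeping gene named by the labels, stood at -0.011 ± 0.039. In dye contrast Hprt1 stood at 0.092, and Actb, also a housekeeping gene, at 0.77, within the range of the carriers.

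**Figure D4:**
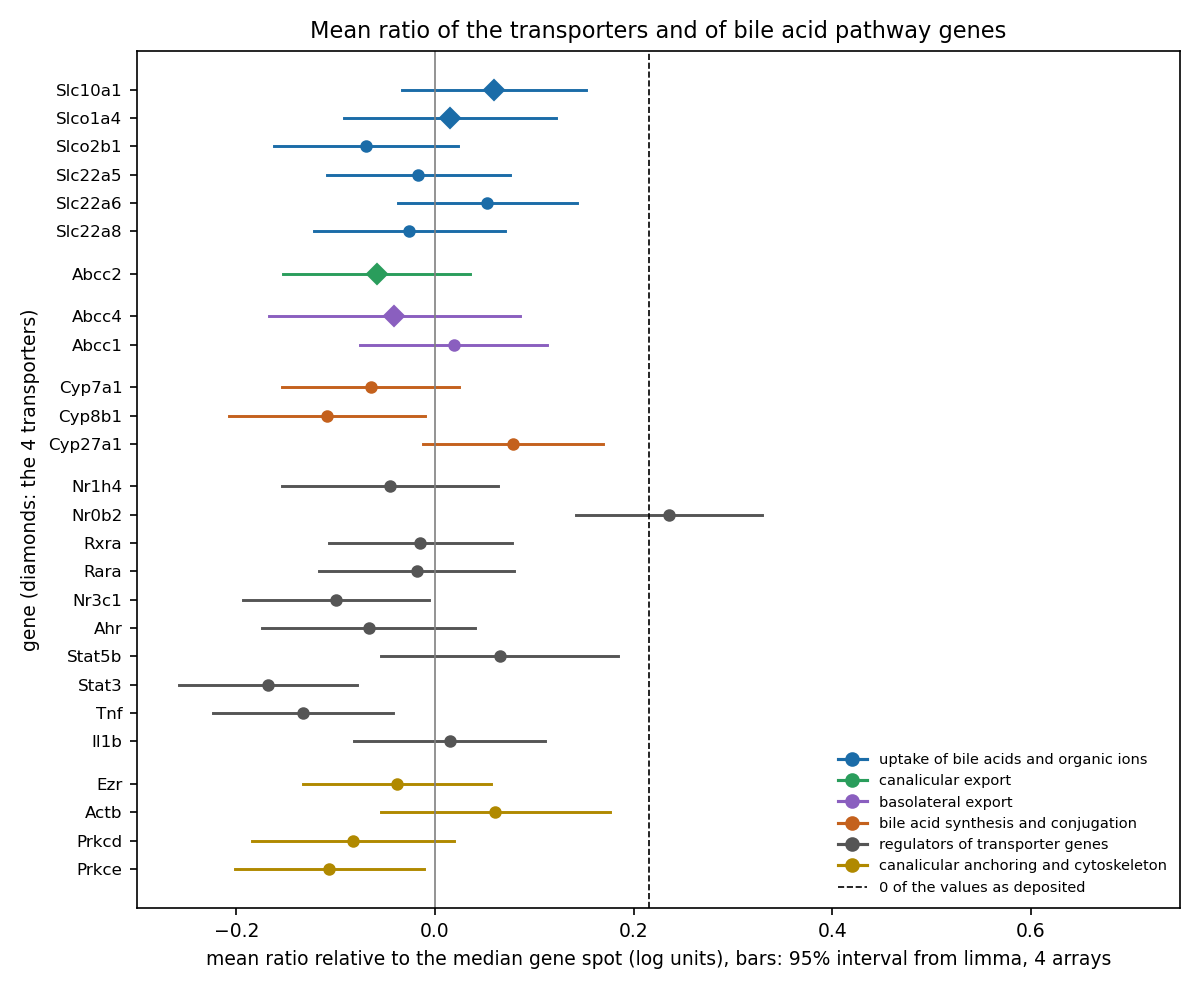
Mean ratio (x axis, log units) of the 4 carriers (diamonds) and the other measured genes of the bile acid lists (circles), with 95% intervals from limma over 4 arrays and genes on the y axis coloured by list. The intervals of the 4 carriers all cross 0, and Nr0b2 at 0.24 stands apart; the dashed line at 0.22 is where 0 falls for values as deposited.

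Markers of other liver cells gave 0 calls in the mean ratio among the 12 measured (4 bile duct, 2 myeloid and lymphoid, 5 endothelial, stellate and fibroblast, 1 erythroid and platelet), against 3.92% of all features, so the count does not set them apart. The values ran from -0.12 to 0.017, and 5 of 5 endothelial, stellate and fibroblast markers were negative, as were 556 of all 1174 features. Of 7 hepatocyte markers, 6 were positive relative to the median gene spot, against 52.6% of all features, and their median was 0.14. Cyp1a2 (0.62), Ttr (0.23) and Tf (0.19) passed the threshold, 3 of 7 against 3.92% of all features. Apob (0.14), Pck1 (0.12) and Cyp2e1 (0.0385) did not pass, and neither did Apoa1 (-0.095), the negative one. These sides and calls depend on the centring. As deposited, the mean of the gene-spot medians was -0.22, larger in size than each positive marker value except those of Cyp1a2 and Ttr. The markers' calls as deposited are not given here. In dye contrast, which the second reading uses, the medians were 0.75 for hepatocyte, -1.43 for bile duct and -0.54 for endothelial, stellate and fibroblast markers. They were -0.16 for myeloid and lymphoid and -1.06 for erythroid and platelet markers, beside -0.083 over all features. The part of the markers' cells in the carriers' ratios was not tested.

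The genes closest to each carrier over the 4 arrays were found by the smallest Euclidean distance of the centred log ratios, among 957 other named genes. Closest to Slc10a1 were Ptp4a3 (distance 0.074), Gsto1 (0.076) and Endog (0.11). Closest to Slco1a4 were Slc46a1 (0.043), Clk4 (0.083) and Csnk1a1 (0.10), and closest to Abcc2 were Fads2 (0.058), Cox8a (0.062) and Slc2a2 (0.066). Abcc4 had more distant neighbours, Sbf1 (0.16), Ldhb (0.17) and Gak (0.17). None of the 4 carriers was among the 3 nearest genes of another: the nearest pair, Slco1a4 and Abcc4, lay 0.27 apart, with Abcc4 76th in the order around Slco1a4 and Slco1a4 39th in the order around Abcc4. These distances rest on 4 arrays that share 2 RNA sources, and mostly on the dye contrast.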

How the data were processed

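The values are the log ratios of 1936 spots on 4 arrays that the authors deposited. Log base, direction, scanner and normalization: not given in the sources used here. Spots form 16 blocks, and 288 spots at 18 positions with no annotation in any block were taken as control spots and left out. Symbols came from the platform annotation. Of 1432 spots with 1 symbol, 1429 matched the rat RefSeq table by Entrez identifier. Another 19 spots had several genes and 197 had none. Each array was centred on its gene-spot median, and spots of 1 symbol were averaged, giving 1174 features. The fit was limma 3.58.1 (lmFit, eBayes; R 4.3.3) with the dye orientation as a term and 2 residual degrees of freedom. P-values were two-sided and Benjamini-Hochberg adjusted over all features (threshold 0.05). The fit was checked on simulated data. The genes, the lists and the fit were chosen with earlier results of these data known. The text names the 4 carriers, measured genes of the bile acid lists and 3 neighbours per carrier. It names the 10 family genes with the largest mean ratio, Hprt1 and Actb. The measured hepatocyte markers were added after their values were seen. Alternatives were values as deposited, equal spread, no dye term, single spots, robust eBayes, a variance trend, block centring, control spots kept, complete features, each array left out, and the sign turned. Figures used matplotlib 3.10.9.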

Additional observations from a re-analysis of the deposited data

How the results depend on the processing

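The 4 arrays, unknown spot brightness and unstated log base limit what can be read. Both pools lie on each array, so each ratio is already within an array, and no second group shares the array numbers for a block. None of the carriers passed in the mean ratio with all 4 arrays under equal spread, no dye term, single spots, robust eBayes, a variance trend, block centring, control spots kept or complete features; with 0 missing values, the last changed nothing. Without the dye term 0 of 1174 features passed in limma, and 5 had an unadjusted p under 0.05. As deposited the mean ratios were -0.16 (Slc10a1), -0.20 (Slco1a4), -0.27 (Abcc2) and -0.26 (Abcc4), all past the threshold, and the dye contrasts -0.17, -0.54, 0.071 and -0.49. With the sign of the arrays with ANIT in Cy3 turned, the ratios were 0.44, 0.25, 0.56 and 0.28, all past it. On single spots the Slco1a4 spot of block 4 was at -0.056, and the dye contrast of the block 10 spot was 0.17. With 1 array left out, the mean ratio ran from 0.039 to 0.080 for Slc10a1, -0.032 to 0.063 for Slco1a4, -0.082 to -0.035 for Abcc2 and -0.12 to 0.038 for Abcc4. The array left alone in its orientation is assumed to vary like the others. Features past the threshold numbered 1061 as deposited, 87 of 1648 on single spots, 101 of 1462 with control spots kept, and 28 (without array 3) to 86 (without array 2). Genes of the bile acid lists past it numbered 25 as deposited, 0 without the dye term, 4 on single spots, 2 each with robust eBayes, a variance trend and control spots kept, and 0 to 1 with an array left out (0 without array 3). With an array left out, Slco1a4 minus Abcc4 ran from -0.011 to 0.12, Abcc2 minus Abcc4 from -0.074 to 0.038, Slc10a1 minus Abcc4 from 0.042 to 0.16, Slc10a1 minus Slco1a4 from 0.0074 to 0.081, Slco1a4 minus Abcc2 from 0.013 to 0.13 and Slc10a1 minus Abcc2 from 0.094 to 0.14. With blocks centred, Abcc2 minus Abcc4 was 0.080, Slco1a4 minus Abcc4 0.16, Slc10a1 minus Abcc4 0.18 and Slc10a1 minus Slco1a4 0.024, and Abcc4 alone was at -0.12. The causes were not tested.

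Among the other genes named, the hepatocyte markers left aside, 15 changed side as deposited. They stood there at -0.20 (Abcc1), -0.13 (Abcd3), -0.15 (Actb), -0.14 (Cyp27a1), -0.16 (Endog), -0.18 (Gsto1), -0.20 (Il1b) and -0.19 (Ptp4a3). The rest changed side to -0.14 (Slc1a1), -0.16 (Slc22a6), -0.13 (Slc25a14), -0.14 (Slc2a1), -0.21 (Slc46a1), -0.13 (Slc6a4) and -0.15 (Stat5b). With blocks centred, 10 did: -0.022 (Actb), 0.012 (Ahr), 0.040 (Ezr), 0.013 (Hprt1), 0.058 (Ldhb), 0.060 (Rara), -0.0023 (Slc1a1), -0.0021 (Slc25a14), -0.0029 (Slc2a1) and -0.019 (Slc46a1). With equal spread Il1b was at -0.0059 and Ldhb at 0.0018. Single spots on the other side were at 0.038 (Cox8a), 0.079 (Gak), 0.0048 (Hprt1), 0.025 (Ldhb), 0.083 (Rara), 0.13 (Rxra), 0.038 (Slc22a5), -0.031 (Slc22a6) and 0.0085 (Slco2b1). With an array left out, ranges that crossed 0 were -0.0065 to 0.044 (Abcc1), -0.059 to 0.031 (Clk4), -0.070 to 0.013 (Csnk1a1), -0.019 to 0.048 (Il1b), -0.036 to 0.025 (Ldhb), -0.099 to 0.0091 (Nr1h4), -0.057 to 0.020 (Rara), -0.037 to 0.0076 (Rxra), -0.064 to 0.010 (Sbf1), -0.036 to 0.0026 (Slc22a5), -0.060 to 0.0083 (Slc22a8), -0.055 to 0.057 (Slc46a1) and -0.0025 to 0.13 (Stat5b). Stat3 passed with robust eBayes, a variance trend and control spots kept, and Slc35a1 without array 1. On single spots, 1 spot each passed for Cyp8b1 (-0.20), Gak (-0.19), Nr3c1 (-0.18) and Stat3 (-0.19), and 1 Nr0b2 spot (0.17) did not.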
